A study of Homo sapiens with 18 samples.

Results

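The 7 genes described here are the sestrins SESN1, SESN2 and SESN3, the growth arrest and DNA damage genes GADD45A, GADD45B and GADD45G, and DDIT4. They were taken by their exact symbols from the 40916 symbols that each of 18 deposited count tables lists, and all 7 were found. Polyadenylated RNA was sequenced from MCF10A, a non-transformed mammary epithelial line that here carried a histone H2B-GFP reporter, from unlabelled HCT116, a colorectal carcinoma line described as p53-null, and from mixed cultures, for which the series text gives 50% of cells to either line. Cultures were not irradiated (NIR) or irradiated with 10 Gy (IR), which gave 6 groups of 3 biological replicates. MCF10A was grown with horse serum, epidermal growth factor, hydrocortisone, cholera toxin and insulin, and HCT116 in McCoy's 5A medium with fetal bovine serum. The line and its medium therefore cannot be told apart, and for the mixed cultures no medium is given. The harvest is given as day 2 in the sample titles and as 72 h after irradiation in the series description.

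Sestrins are stress-induced proteins that hold back the growth kinase mTORC1, by binding the GATOR2 complex and by acting with AMPK, and that limit oxidative damage. SESN2 is also a leucine sensor. The GADD45 proteins are small partners of the kinase MAP3K4, of PCNA and of the CDK1-cyclin B1 complex, and link damage to p38 and JNK signalling and to arrest before mitosis. DDIT4, also called REDD1, restrains mTORC1 through the TSC complex. SESN1, SESN2 and GADD45A are textbook p53 targets, SESN3 is a FOXO target, SESN2 is also driven by ATF4, and DDIT4 is driven by hypoxia, glucocorticoids, ATF4 and p53.

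The sequences before the transcription starts are shown for 4 genes, because they differ in the short motifs that known regulators of these genes bind. They were taken from RefSeq on GRCh38.p14, where 6 of the 7 genes, all but GADD45A, matched with 8 start sites. Each window is the 250 bases before the start, less any bases that lie in an exon of the same gene, written on the gene's own strand. Capitals mark every match, on either strand, to the p53 half-site consensus, the hypoxia response core, the CCAAT box, the TATA box, the shared ATF4 and C/EBP element, or the FOXO element. A box read on the other strand is printed as its reverse complement.
SESN1, the third of its start sites, chr6:109008989-109009238, minus strand: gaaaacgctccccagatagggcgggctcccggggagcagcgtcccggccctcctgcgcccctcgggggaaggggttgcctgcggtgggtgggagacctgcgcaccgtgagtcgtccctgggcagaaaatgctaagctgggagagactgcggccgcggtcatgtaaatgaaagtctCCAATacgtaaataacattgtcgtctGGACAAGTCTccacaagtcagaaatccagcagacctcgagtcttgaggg
SESN2, chr1:28259268-28259517, plus strand: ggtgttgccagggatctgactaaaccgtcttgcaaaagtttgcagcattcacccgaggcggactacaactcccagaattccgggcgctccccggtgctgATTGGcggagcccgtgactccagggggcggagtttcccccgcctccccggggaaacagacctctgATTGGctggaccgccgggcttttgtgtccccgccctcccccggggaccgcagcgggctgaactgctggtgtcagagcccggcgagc
DDIT4, chr10:72273674-72273919, plus strand: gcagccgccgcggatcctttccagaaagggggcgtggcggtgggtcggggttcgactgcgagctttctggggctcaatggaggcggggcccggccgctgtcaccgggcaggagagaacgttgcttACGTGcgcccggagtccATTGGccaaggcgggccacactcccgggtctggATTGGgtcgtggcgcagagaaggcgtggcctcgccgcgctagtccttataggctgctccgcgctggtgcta
GADD45B, chr19:2475877-2476121, plus strand: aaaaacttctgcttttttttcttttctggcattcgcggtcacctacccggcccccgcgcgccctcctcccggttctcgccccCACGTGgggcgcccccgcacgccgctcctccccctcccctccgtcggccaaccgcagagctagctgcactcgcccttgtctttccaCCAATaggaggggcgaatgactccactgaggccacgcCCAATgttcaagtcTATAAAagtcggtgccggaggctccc

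The SESN1 window shown, 1 of 3 for this gene, held a p53 half-site, GGACAAGTCT, 49 to 40 bases before the start, and such a match was present in 5.59% of 34788 windows of 250 bases. The other SESN1 windows held no such match, and the window shown was chosen for it. The DDIT4 window held the hypoxia response core ACGTG 125 to 121 bases before the start, a core present in 18.5% of windows. In GADD45B the core was part of the palindrome CACGTG, 168 to 163 bases before the start, and a TATA box, TATAAA, lay 31 to 26 bases before it, as in 10.8% of windows. CCAAT boxes, present in 32.0% of windows, occurred in all 4 of these sequences. SESN2 held a pair of them and none of the other motifs. The GADD45G window, not shown, held the same palindrome 143 to 138 bases and a CCAAT box 79 to 75 bases before the start, and the SESN3 window held no match. The ATF4 and C/EBP element TGATGCAA, present in 0.776% of windows, was found in none of the 8 windows. Nor was the FOXO element GTAAACA, which 2.98% of windows held. A match describes letters in the window and not bound sites, and no binding was measured here.

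Sequencing depth ran from 25.7 M to 40.8 M counts a library (M, 1e+06). Levels are CPM, counts scaled to a library total of 1e+06, and levels of different genes are compared only per kilobase of exon (RPKM). The share of mitochondrially encoded transcripts was 5.19% ± 0.116 and 6.20% ± 0.146 in NIR and IR MCF10A, 8.62% ± 0.172 and 11.994% ± 0.430 in HCT116, and 8.54% ± 0.177 and 12.3% ± 0.354 in mixed cultures (SD, n = 3). Of 9 basal mammary markers, 8 were higher in every MCF10A NIR library than in any HCT116 NIR library, and their summed level was 12244 to 13319 CPM against 298 to 313 CPM. Of 8 intestinal markers, 5 were higher in every HCT116 NIR library than in any MCF10A NIR library. They were low in HCT116, 12.4 to 13.3 CPM in sum with CDX1 at 0, and reached 0.056 to 0.376 CPM in MCF10A. The mixed libraries went against their description. From genes specific to each line, MCF10A supplied 0.503%, 0.438% and 0.399% of the RNA in mixed NIR and 1.29%, 1.17% and 1.27% in mixed IR, so that these cultures carried almost solely HCT116 RNA. In bulk RNA, fewer cells of a line and less RNA per cell cannot be told apart.

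**Figure D1:**
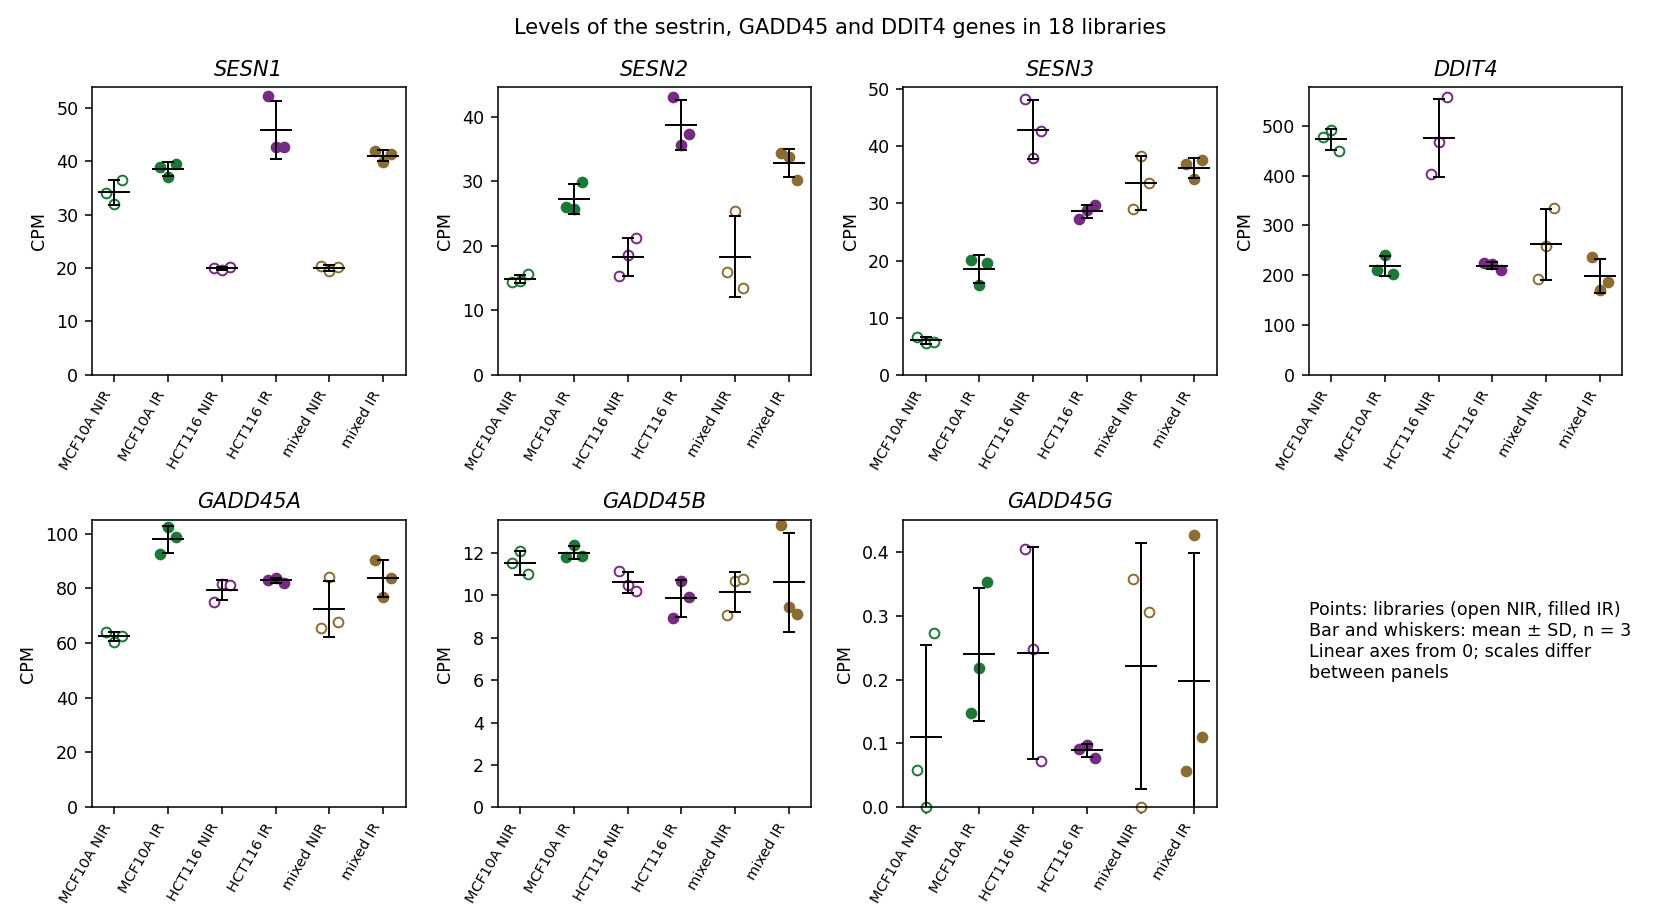
Level of each gene in every library, in CPM on linear axes that start at 0 and differ between panels. Points are libraries, open for NIR and filled for IR, and bars with whiskers are the mean ± SD of 3 libraries. SESN3 was highest in HCT116 NIR and DDIT4 was high in both NIR monocultures, while GADD45G stayed under 0.43 CPM.

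DDIT4 was the most abundant of the 7 transcripts per kilobase in all 6 groups, and it was lower after irradiation in all 3 kinds of culture, though in the mixed cultures that call rested on single libraries. GADD45A came next, at 30.2 to 47.3 RPKM in the group means. The other genes were lower: SESN1, SESN2 and GADD45B lay at 3.89 to 11.2 RPKM, SESN3 at 0.565 to 4.06 RPKM, and GADD45G at 0.067 to 0.183 RPKM. SESN2 rose in all of them, while SESN1, SESN3 and GADD45A each passed the test in some cultures and missed it in others. The counts of genes past the test were 4 of 6 tested in MCF10A, 4 of 6 in HCT116 and 3 of 7 in the mixed cultures. These shares stand beside a wide background: 55.4% of all genes tested passed in MCF10A (26.2% higher, 29.2% lower), 52.5% in HCT116 (25.3% higher, 27.2% lower) and 49.4% in the mixed cultures (24.0% higher, 25.4% lower). The test was edgeR's quasi-likelihood test, 2-sided, with Benjamini-Hochberg adjustment over all genes tested and a threshold of 0.05. All adjusted p-values below are from it, and log2 fold changes carry their standard error (SE).

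SESN1 (chr6:108984309-109094846, minus strand) is the sestrin first found as a p53-responsive gene. In HCT116 it was at 19.96, 19.7 and 20.1 CPM without irradiation and at 52.2, 42.7 and 42.6 CPM after it. All irradiated libraries lay far above all others, a 2.32-fold rise (log2 fold change 1.21, SE 0.093, adjusted p = 1.6e-10, n = 3 in each group). In the mixed cultures it went from 20.3, 19.4 and 20.2 CPM to 41.9, 39.9 and 41.4 CPM. This 2.02-fold rise (log2 1.01, SE 0.078, adjusted p = 7.1e-10) again left no overlap between the groups. MCF10A started higher, at 34.0, 31.9 and 36.5 CPM, and reached 38.8, 37.0 and 39.5 CPM. The MCF10A groups did not overlap, yet the difference of 0.15 (SE 0.073) did not pass the test across all genes (adjusted p = 0.0815). It passed with upper-quartile factors (0.24, adjusted p = 0.0074), with library size alone, with halved counts and without MCF10A NIR replicate 3.

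The response of SESN1 was larger in HCT116 than in MCF10A by 0.98 on the log2 scale (SE 0.121, adjusted p = 3.8e-07), in the test of the difference itself. That test was passed by 3 of the 6 genes tested and by 37.3% of all genes. Without irradiation SESN1 was 1.97-fold lower in HCT116 than in MCF10A (log2 fold change -0.98, SE 0.086, adjusted p = 1.1e-08). In that comparison of the lines 4 of the 6 genes tested and 74.8% of all genes passed. After irradiation the lines differed by 0.024 (SE 0.081, adjusted p = 0.796), in a comparison that 5 of 6 and 74.9% of all genes passed. With upper-quartile factors or library size alone, which move the median of all genes between the irradiated lines to 0.22 and 0.27, SESN1 was called higher in irradiated HCT116 (0.21 and 0.25). In CPM the irradiated libraries of MCF10A, the mixed cultures and HCT116 lay in that order without overlap. This order rests on unscaled library totals. In the test, irradiated mixed cultures differed from irradiated HCT116 by -0.17 (SE 0.079, adjusted p = 0.21), which did not pass.

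SESN2 (chr1:28259518-28282491, plus strand), the leucine-sensing member, rose in all 3 kinds of culture. In MCF10A it went from 14.4, 14.5 and 15.5 CPM to 26.1, 25.6 and 30.0 CPM, a 1.81-fold rise with no overlap (log2 0.86, SE 0.093, adjusted p = 7.3e-09). In HCT116 the values were 15.3, 18.5 and 21.1 CPM and then 43.0, 35.7 and 37.4 CPM, a 2.13-fold rise (log2 1.09, SE 0.109, adjusted p = 1.4e-08). The responses of these lines differed by 0.15 (SE 0.155), which did not pass the test (adjusted p = 0.483). Between the irradiated lines SESN2 was 1.21-fold higher in HCT116 (log2 0.27, SE 0.089, adjusted p = 0.00742), a call lost without MCF10A IR replicate 1 (0.0503 by edgeR), MCF10A IR replicate 2 (0.053) or HCT116 IR replicate 1 (0.069) and larger with upper-quartile factors (0.46) or library size alone (0.50). Without irradiation the difference was 0.11 (SE 0.123, adjusted p = 0.447), and it passed with upper-quartile factors (0.31) and library size alone (0.30). In the mixed cultures SESN2 was at 16.0, 25.4 and 13.5 CPM without irradiation and at 34.5, 33.8 and 30.3 CPM after it. Mixed NIR replicate 2 stood above the other NIR libraries and still below every irradiated one (1.76-fold, log2 0.81, SE 0.149, adjusted p = 1.1e-04). That library also held the highest ATF4 level of its group, 382 CPM against 283 and 254 CPM, and whether these go together was not tested. After irradiation SESN2 in the mixed cultures differed from HCT116 by -0.25 (SE 0.084, adjusted p = 0.0671), and passed without HCT116 IR replicate 2 (-0.30, adjusted p = 0.0451 by edgeR).

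SESN3 (chr11:95165513-95232475, minus strand), the FOXO-responsive sestrin, moved in opposite directions in the monocultures. In MCF10A it was the lowest of the sestrins per kilobase, at 6.62, 5.58 and 5.74 CPM, and rose to 20.2, 15.7 and 19.6 CPM after irradiation. This was a 3.05-fold rise without overlap (log2 1.61, SE 0.125, adjusted p = 8.9e-12), the largest fold change of these genes in the 3 irradiation comparisons. In HCT116 it began at 48.2, 37.9 and 42.7 CPM and fell to 27.4, 28.8 and 29.7 CPM, again without overlap (1.49-fold lower, log2 -0.58, SE 0.090, adjusted p = 9.4e-06). The responses differed by -2.26 (SE 0.154, adjusted p = 2.0e-11), HCT116 against MCF10A. The lines were 6.26-fold apart without irradiation (log2 2.65, SE 0.115, adjusted p = 4.5e-13) and 1.32-fold apart after it (log2 0.40, SE 0.099, adjusted p = 7.9e-04), with HCT116 higher each time. With library size alone the irradiated lines differed by 0.63.

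In the mixed cultures SESN3 went from 28.9, 38.3 and 33.5 CPM to 36.8, 34.3 and 37.6 CPM. The groups overlapped, and the difference of 0.080 (SE 0.092) did not pass the test (adjusted p = 0.498). The mixed response was higher than that of HCT116 alone by 0.67 (SE 0.134, adjusted p = 0.0106), a test that 0.830% of all genes passed. SESN3 was the 1 of 7 genes tested there that passed. The call was lost without HCT116 NIR replicate 1 (adjusted p = 0.0598), HCT116 IR replicate 1 (0.0524), mixed NIR replicate 1 (0.0706) or mixed IR replicate 3 (0.0616), by edgeR each time. After irradiation SESN3 was 1.26-fold higher in the mixed cultures than in HCT116 alone (log2 0.33, SE 0.079, adjusted p = 0.00615). It was the 1 of 6 genes tested that passed there, against 8.56% of all genes.

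**Figure D2:**
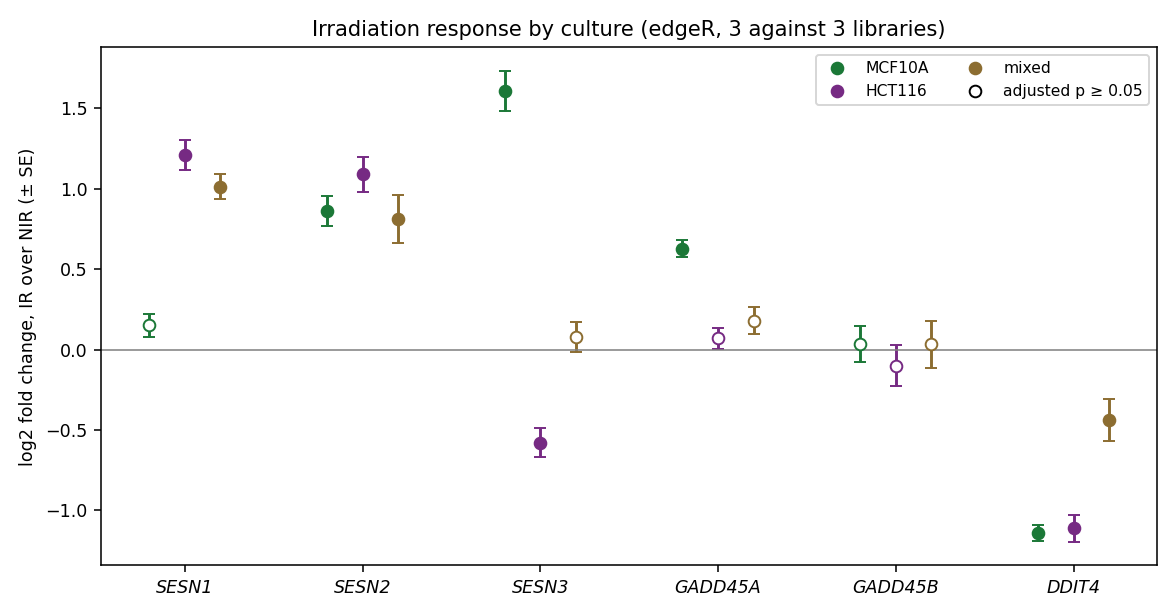
Log2 fold change of IR over NIR in each kind of culture, with its SE, for the 6 genes tested in all of them. Filled points passed the test and open points did not. SESN3 lies at 1.61 in MCF10A and at -0.58 in HCT116, while DDIT4 lies below 0 in all 3 cultures.

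Summed per kilobase, the sestrins together were at 11.5 ± 0.618 RPKM in MCF10A NIR and 17.1 ± 1.06 RPKM in MCF10A IR (SD, n = 3). In HCT116 the sum was 13.3 ± 0.723 and 22.9 ± 2.08 RPKM, and in the mixed cultures 12.4 ± 2.09 and 21.0 ± 0.625 RPKM. No NIR library of any culture reached the sum of an IR library of the same culture. In MCF10A NIR, SESN1 supplied 57.9% ± 0.828, SESN2 37.2% ± 0.892 and SESN3 4.91% ± 0.510. In HCT116 NIR the shares were 29.4% ± 1.33, 39.9% ± 4.88 and 30.7% ± 4.07. After irradiation the shares were 43.9% ± 1.36, 45.9% ± 1.60 and 10.2% ± 0.991 in MCF10A against 39.1% ± 1.24, 49.0% ± 0.626 and 11.9% ± 1.46 in HCT116. SESN2 thus held the highest mean share in both irradiated lines. In MCF10A IR this did not hold in every library: in replicate 1 SESN1 was at 7.58 RPKM and SESN2 at 7.55 RPKM. These shares are descriptions without a test, and they rest on the exon lengths of GENCODE release 29.

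**Figure D3:**
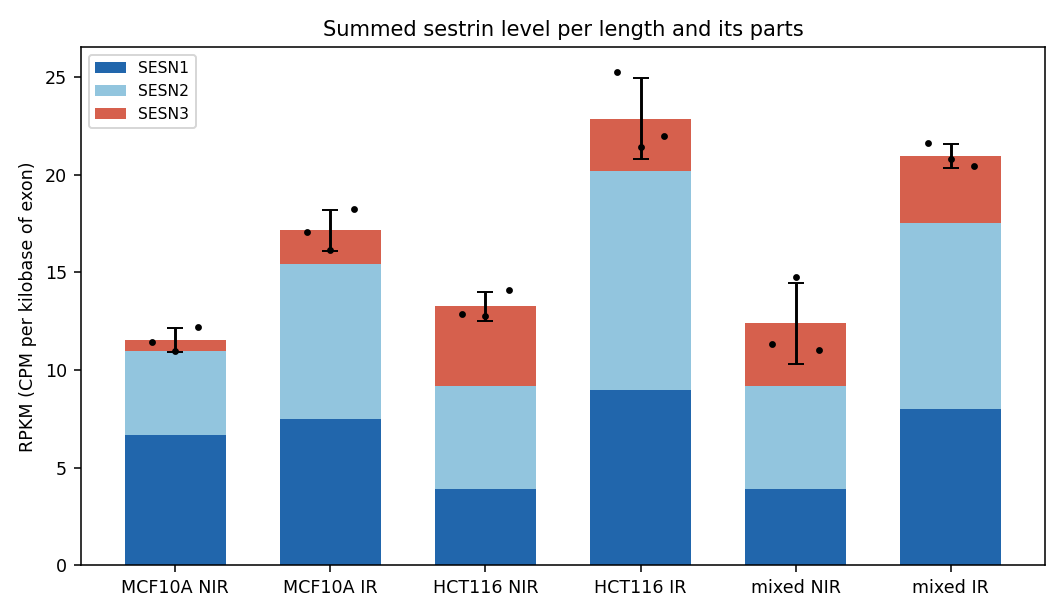
Sum of the 3 sestrins in RPKM by group, stacked by gene as group means, with the SD of the sum and points for the 3 libraries. The part of SESN3 is 4.91% in MCF10A NIR and 30.7% in HCT116 NIR, and 10.2% and 11.9% after irradiation.

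GADD45A (chr1:67685201-67688334, plus strand), the p53-responsive member of its family, rose in MCF10A. It went from 64.0, 60.5 and 62.7 CPM to 92.6, 102.4 and 98.7 CPM, 1.55-fold and without overlap (log2 0.63, SE 0.055, adjusted p = 1.1e-10). In HCT116 it was at 75.0, 81.7 and 81.3 CPM and then at 82.9, 83.6 and 82.1 CPM. The irradiated libraries were all above the others by a narrow margin, and the difference of 0.071 (SE 0.064) did not pass the test (adjusted p = 0.374). The responses of the lines were unequal, that of HCT116 being the smaller (log2 difference -0.64, SE 0.083, adjusted p = 1.1e-06). In the mixed cultures GADD45A was at 65.4, 84.0 and 67.8 CPM and then at 90.2, 76.9 and 83.7 CPM, with overlap (0.18, SE 0.085, adjusted p = 0.0869). Without mixed NIR replicate 2, the high one, the difference was 0.30 and passed (adjusted p = 0.00336 by edgeR). It also passed with upper-quartile factors (0.22, adjusted p = 0.039), with library size alone (0.21, 0.0469) and in a fit of all 18 libraries (0.22, 0.0187).

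Between the lines GADD45A was higher in HCT116 without irradiation by 0.15 (SE 0.063, adjusted p = 0.0415), and after it 1.38-fold lower (log2 -0.47, SE 0.056, adjusted p = 3.7e-08). The first of these calls was lost on leaving out any single MCF10A NIR library or HCT116 NIR replicate 2 or 3 (0.11 to 0.15, adjusted p from 0.0847 to 0.169 by edgeR), without the low-count filter and in the fit of all 18 libraries. With upper-quartile factors or library size alone the difference was 0.35 by either without irradiation, and -0.29 and -0.24 after it. GADD45B (chr19:2476127-2478257, plus strand), known as an NF-kappaB and TGF-beta responsive gene, stayed at 8.96 to 13.3 CPM in all 18 libraries. Its libraries overlapped between NIR and IR in every culture, with log2 fold changes of 0.035 in MCF10A (SE 0.112, adjusted p = 0.81), -0.099 in HCT116 (SE 0.128, 0.54) and 0.033 in the mixed cultures (SE 0.146, 0.875). HCT116 held less of it than MCF10A, by 0.32 without irradiation (log2 -0.32, adjusted p = 0.0259) and by 0.51 after it (log2 -0.51, SE 0.126, adjusted p = 7.1e-04; -0.33 with upper-quartile factors and -0.28 with library size alone). The former did not pass with upper-quartile factors (-0.12, adjusted p = 0.399) or library size alone, settings that put the all-gene median of this comparison at 0.25. It was also lost without MCF10A NIR replicate 2 (adjusted p = 0.0618), HCT116 NIR replicate 2 (0.0665) or HCT116 NIR replicate 3 (0.0518), by edgeR.

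GADD45G (chr9:89605012-89606555, plus strand), the third family member, was near the limit of detection. Its raw counts were 2, 0 and 8 in MCF10A NIR and 4, 6 and 12 in MCF10A IR, 14, 8 and 2 and then 3, 4 and 2 in HCT116, and 10, 0 and 11 and then 2, 16 and 4 in the mixed cultures. A count of 0 in MCF10A NIR replicate 2 allows up to 0.0845 CPM, and in mixed NIR replicate 2 up to 0.0865 CPM, taking 3 counts as the floor and counting error alone. These limits are too low if each mate of a read pair was counted, a setting that is not given. GADD45G passed the filter on low counts in the irradiation comparison of the mixed cultures alone of the 3, where the difference of -0.14 (SE 0.867, adjusted p = 0.912) was not detectable at this depth. Per kilobase GADD45A exceeded GADD45B 5.60 ± 0.388 times in MCF10A NIR and 8.41 ± 0.283 times in MCF10A IR. The ratio was 7.74 ± 0.698 and 8.73 ± 0.759 in HCT116 (SD, n = 3).

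DDIT4 (chr10:72273924-72276036, plus strand), the TSC-dependent brake on mTORC1, fell after irradiation. In MCF10A it was at 479, 492 and 450.3 CPM and then at 211, 240.2 and 203 CPM. This 2.21-fold fall had no overlap (log2 -1.14, SE 0.052, adjusted p = 1.0e-16) and was the 385th lowest fold change of 15154 genes. In HCT116 the values were 403, 468 and 558 CPM and then 225, 222 and 211 CPM, a 2.16-fold fall (log2 -1.11, SE 0.083, adjusted p = 9.3e-11). The responses of the lines differed by -0.050 (SE 0.115, adjusted p = 0.795), and that difference changes sign without the low-count filter, without mitochondrial genes and in a fit of all 18 libraries. In CPM the NIR lines were at 474 ± 21.2 and 476 ± 77.9 (SD, n = 3), and the IR lines at 218 ± 19.5 and 219 ± 7.52. Under TMM factors HCT116 was lower after irradiation (log2 -0.22, SE 0.057, adjusted p = 0.00113). With library size alone the same difference was 0.0083, and without irradiation it turned from -0.19 (adjusted p = 0.0569) to 0.0083. Other settings called HCT116 NIR lower: limma-voom (-0.21, adjusted p = 0.0386) and edgeR without the low-count filter (-0.21, 9.4e-05). So did edgeR without MCF10A NIR replicate 3 (-0.24, adjusted p = 0.0404) or HCT116 NIR replicate 3 (-0.34, 2.0e-04). As the result turned on the setting, no direction between the lines is given for DDIT4.

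In the mixed cultures DDIT4 was already low without irradiation, at 193, 259 and 335 CPM, and was at 236, 171 and 185 CPM after it. The groups overlapped, and the fall of 1.35-fold (log2 -0.44, SE 0.131, adjusted p = 0.00867) was lost without mixed NIR replicate 3 (-0.23, adjusted p = 0.0913) or mixed IR replicate 2 (-0.35, 0.0716), both by edgeR, and with DESeq2's Wald test (adjusted p = 0.182). Against HCT116 alone, mixed NIR was 1.80-fold lower with no overlap (log2 -0.85, SE 0.140, adjusted p = 0.00206). DDIT4 was the 1 of 7 genes tested that passed there, against 2.04% of all genes. The mixed and HCT116 responses of DDIT4 differed by 0.69 (SE 0.187), which did not pass (adjusted p = 0.0804) but passed without mixed NIR replicate 3 (0.88, adjusted p = 0.0047 by edgeR). After irradiation DDIT4 in the mixed cultures differed from HCT116 by -0.16 (SE 0.075, adjusted p = 0.218), and passed without mixed IR replicate 1 (-0.31, adjusted p = 4.0e-04). Had the lines kept their monoculture levels at the measured RNA shares, mixed NIR would hold 476 CPM of DDIT4 and 42.8 CPM of SESN3, against 262 and 33.6 CPM measured. For mixed IR the same sums were 219 and 28.5 CPM against 198 and 36.3 CPM.

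DDIT4L, the paralog of DDIT4, separated the lines. It was at 0.271 ± 0.123 CPM in MCF10A NIR and 19.9 ± 2.19 CPM in HCT116 NIR (SD, n = 3; log2 6.02, SE 0.230, adjusted p = 7.5e-14). After irradiation it fell in HCT116 to 12.3 ± 0.505 CPM (log2 -0.69, SE 0.110, adjusted p = 1.4e-05) and in the mixed cultures from 16.3 ± 1.74 to 13.3 ± 2.05 CPM (log2 -0.33, SE 0.122, adjusted p = 0.0302). In MCF10A, at 6 to 20 counts a library, the difference of 0.92 did not pass the test (SE 0.576, adjusted p = 0.183).

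Of the known regulators, ATF4, the transcription factor of the integrated stress response, fell in all 3 kinds of culture. It went from 275, 303 and 294 CPM to 243, 245 and 246 CPM in MCF10A (log2 -0.27, SE 0.044, adjusted p = 6.9e-06). In HCT116 it went from 294, 295 and 349 CPM to 160.2, 159 and 161 CPM (log2 -0.96, SE 0.067, adjusted p = 3.2e-11), a larger fall by 0.77 (log2 difference -0.77, SE 0.085, adjusted p = 7.3e-08). In the mixed cultures the difference was -0.80 (SE 0.097, adjusted p = 5.8e-07). FOXO3 was at 83.04 ± 4.79 and 86.4 ± 2.19 CPM in MCF10A (adjusted p = 0.612), and rose slightly in HCT116 from 99.0 ± 3.82 to 111 ± 9.18 CPM (log2 0.18, SE 0.068, adjusted p = 0.0309). What these transcript levels mean for protein activity was not measured.

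**Figure D4:**
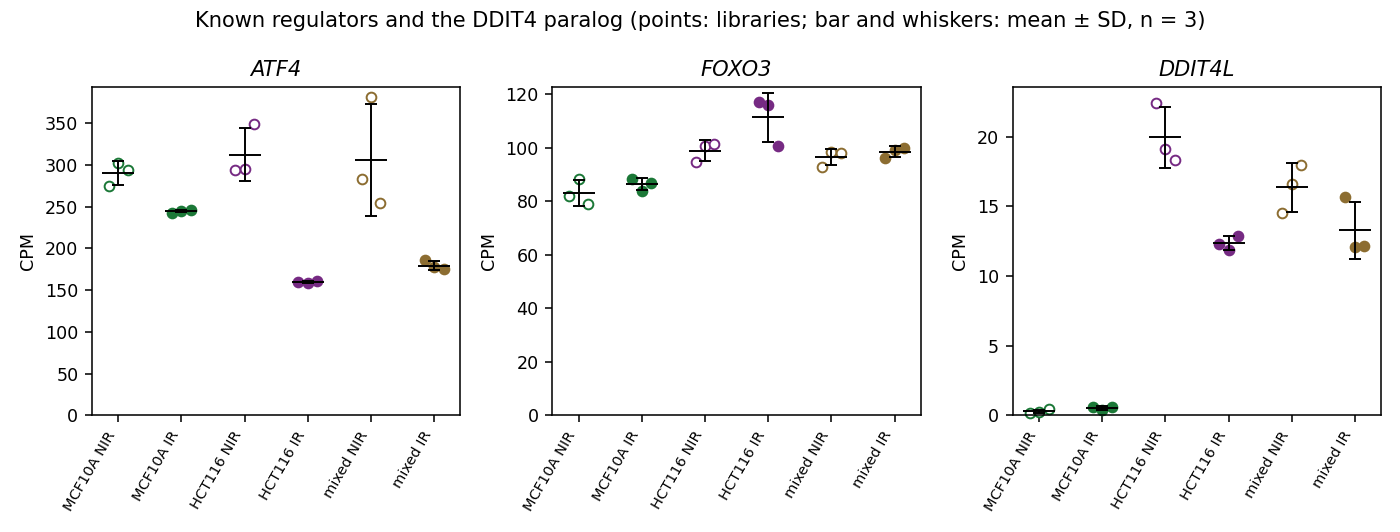
CPM of ATF4, FOXO3 and the DDIT4 paralog DDIT4L in every library, with the mean ± SD of 3 libraries by group, on linear axes from 0. ATF4 is lower in every IR group than in the NIR group of the same culture, and DDIT4L is under 1 CPM in MCF10A.

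The lists of known regulators and targets are described by their counts and medians, without a test of the lists. Of all genes tested, 26.2% were called higher and 29.2% lower in MCF10A, 25.3% and 27.2% in HCT116, and 24.0% and 25.4% in the mixed cultures. For each list the share in at least 1 direction is given beside these. Of 24 p53 target genes, 17 of 24 tested rose and 1 fell in MCF10A, 22 of 23 rose in HCT116 and 23 of 23 rose in the mixed cultures. The share higher was 70.8%, 95.7% and 100% in that order. Their median log2 fold changes were 0.52, 1.36 and 1.11, against 0.0035, 0.0072 and 0.012 over all genes tested. CDKN1A, the p21 inhibitor of cyclin-dependent kinases, went from 172 ± 10.4 to 590 ± 26.6 CPM in MCF10A (log2 1.76) and from 318 ± 39.3 to 1593 ± 90.2 CPM in HCT116 (log2 2.33). MDM2, the ubiquitin ligase of p53, rose by 0.98, 1.41 and 1.58 on the log2 scale in MCF10A, HCT116 and the mixed cultures. GDF15, a stress cytokine, rose by 1.88 in MCF10A, 1.36 in HCT116 and 1.56 in the mixed cultures. SESN1, SESN2 and GADD45A were not in this list.

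Of 19 ATF4 targets tested, 4 rose and 8 fell in MCF10A (median -0.17), 3 rose and 9 fell in HCT116 (-0.42), and 2 rose and 7 fell in the mixed cultures (-0.26). The share lower was 42.1%, 47.4% and 36.8%, against 29.2%, 27.2% and 25.4% of all genes. PHGDH, the first enzyme of serine synthesis, fell by 1.62, 2.07 and 1.64 on the log2 scale in the 3 cultures. ASNS, asparagine synthetase, fell from 8.65 ± 1.49 to 2.22 ± 0.878 CPM in HCT116. ATF3, itself a stress transcription factor, rose in each, by 2.85, 1.74 and 1.77. Among FOXO targets, 7 of 12 tested rose and 3 fell in MCF10A (median 0.41), against 3 and 5 of 11 in HCT116 (-0.33) and 5 and 3 of 12 in the mixed cultures (0.042). The share higher was 58.3%, 27.3% and 41.7%, against 26.2%, 25.3% and 24.0% of all genes. The share lower was 25.0%, 45.5% and 25.0%, against 29.2%, 27.2% and 25.4%. FBXO32, a ubiquitin ligase subunit, went from 20.5 ± 2.89 to 63.5 ± 5.23 CPM in MCF10A. The insulin receptor gene INSR fell in each culture (log2 -0.29 in MCF10A, -0.83 in HCT116 and -0.69 in the mixed cultures). In the test of the response difference, 0 of 12 FOXO targets were higher and 9 lower in HCT116 than in MCF10A (median -0.61, against -0.10 over all genes). The 9 include TXNIP (-4.15, SE 1.47, adjusted p = 0.029), which failed the low-count filter in HCT116 alone and entered this test through MCF10A. No response of TXNIP in HCT116 could be measured. Of all genes, 15.4% were called higher and 21.9% lower in that test.

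Of 15 hypoxia-responsive genes, 9 rose and 2 fell in MCF10A (median 0.40), while 1 rose and 14 fell in HCT116 (-0.93) and 1 rose and 13 fell in the mixed cultures (-0.77). The share lower was 13.3%, 93.3% and 86.7%, against 29.2%, 27.2% and 25.4% of all genes. ADM, a vasodilator peptide, rose by 1.10 in MCF10A. ANKRD37 fell from 18.5 ± 2.11 to 2.42 ± 0.799 CPM in HCT116, and the glucose transporter gene SLC2A1 rose there from 201 ± 13.5 to 415 ± 39.7 CPM. SLC2A1 also rose in MCF10A (log2 0.36) and the mixed cultures (0.96). In the test of the response difference, HCT116 minus MCF10A, 13 of 15 were called lower and 1 higher (median -1.52), where 21.9% of all genes were called lower and 15.4% higher. Where DDIT4 was lower in mixed NIR than in HCT116 NIR, 4 of these 15 were also lower and 0 higher, against 1.15% and 0.887% of all genes. ANKRD37 was at 6.14 ± 1.96 CPM in mixed NIR (log2 -1.56, SE 0.172, adjusted p = 2.8e-05), and ADM differed by -0.77 (SE 0.102, adjusted p = 0.00019). In the same comparison of mixed NIR with HCT116 NIR, 4 of 23 p53 targets tested (17.4%) were also lower and 0 higher. Of 10 glucocorticoid-responsive genes tested, 1 was lower and 0 higher, and of 19 ATF4 targets 0 were lower and 0 higher. The part of any of these genes in the DDIT4 difference was not tested. Of glucocorticoid-responsive genes, 3 of 11 rose and 7 fell in MCF10A (median -0.36), 1 and 6 of 10 in HCT116 (-0.53) and 2 and 6 of 10 in the mixed cultures (-0.34). The share lower was 63.6%, 60% and 60%, against 29.2%, 27.2% and 25.4% of all genes. In MCF10A the kinase gene SGK1 rose by 1.19 and CEBPD fell by 1.00. The clock gene PER1 fell in each culture (log2 -0.33 in MCF10A, -1.37 in HCT116 and -0.86 in the mixed cultures).

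Of the sestrin partners and amino acid sensors, 7 of 21 rose and 6 fell in MCF10A (median 0.044), 8 and 3 of 22 in HCT116 (0.049), and 6 and 4 of 22 in the mixed cultures (0.067). In MCF10A these shares, 33.3% higher and 28.6% lower, lay near the 26.2% and 29.2% of all genes. In HCT116 and the mixed cultures 36.4% and 27.3% were higher, against 25.3% and 24.0%, and 13.6% and 18.2% were lower, against 27.2% and 25.4%. CASTOR2, of the CASTOR family of mTORC1 regulators, rose in all 3, by 0.92, 0.87 and 0.71. SQSTM1, the autophagy receptor that sestrins bind, rose in MCF10A from 208 ± 13.3 to 417 ± 28.7 CPM. SQSTM1 also rose in HCT116 (log2 0.27) and the mixed cultures (0.33). The GATOR2 subunit gene SEH1L fell in each culture (log2 -0.70 in MCF10A, -0.28 in HCT116 and -0.41 in the mixed cultures). RRAGD, a Rag GTPase that recruits mTORC1 to the lysosome, fell by 0.83 in HCT116 and 0.73 in the mixed cultures. In the list of TSC, RHEB, mTORC1 and AMPK genes, 6 of 19 rose and 6 fell in MCF10A (median -0.0022), 9 and 4 in HCT116 (0.16), and 7 and 3 in the mixed cultures (0.072). The share higher was 31.6%, 47.4% and 36.8%, against 26.2%, 25.3% and 24.0% of all genes. The AMPK beta subunit genes PRKAB1 and PRKAB2 rose in each culture, PRKAB1 by 0.32, 1.11 and 0.78. RHEB, the direct activator of mTORC1, fell in each culture (log2 -0.24 in MCF10A, -0.53 in HCT116 and -0.61 in the mixed cultures). EIF4EBP1, a translational repressor that mTORC1 inactivates, fell in MCF10A (log2 -0.66) and HCT116 (-0.34).

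Among the partners of the GADD45 proteins, 2 of 16 rose and 9 fell in MCF10A (median -0.35), 5 and 6 of 15 in HCT116 (-0.024), and 4 and 9 of 16 in the mixed cultures (-0.30). The share lower was 56.2%, 40.0% and 56.2%, against 29.2%, 27.2% and 25.4% of all genes. CCNB1 and CDK1, the pair that drives mitosis, fell together in each culture. CCNB1 went from 264 ± 6.59 to 107 ± 4.80 CPM in MCF10A, from 236 ± 16.9 to 109.8 ± 1.53 CPM in HCT116, and from 269 ± 34.1 to 138 ± 21.9 CPM in the mixed cultures. The p38 kinase gene MAPK11 rose by 0.77 in MCF10A, 0.33 in HCT116 and 0.47 in the mixed cultures. The DNA glycosylase gene TDG rose in HCT116 (log2 0.49) and the mixed cultures (0.27) and fell in MCF10A (-0.36). In the list of regulators 9 of 21 rose and 8 fell in MCF10A (median 0.035), 7 and 10 of 20 in HCT116 (-0.19), and 5 and 9 of 21 in the mixed cultures (-0.16). The share lower was 38.1%, 50.0% and 42.9%, against the same shares of all genes. The share higher was 42.9%, 35.0% and 23.8%, against 26.2%, 25.3% and 24.0% of all genes. The immediate early gene EGR1 fell from 208 ± 11.5 to 67.5 ± 6.75 CPM in HCT116. BRCA1, a repair and transcription cofactor, fell in each culture (log2 -1.19 in MCF10A, -1.04 in HCT116 and -0.98 in the mixed cultures).

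The genes most alike to each member were found by Pearson's r of log2(CPM + 1) over the 18 libraries, among 10914 genes with at least 10 CPM in some group mean. All points share the same 6 groups, so r describes the group pattern and carries no test. For SESN1 these were PLK2 (r = 0.978), METTL8 (0.977) and AP2B1 (0.977). PLK2, a polo-like kinase, went from 28.2 to 149 CPM in HCT116 and from 89.2 to 127 CPM in MCF10A. For SESN2 they were TAP1 (0.950), CDKN1A (0.947) and NINJ1 (0.946). For SESN3 they were SLC9A3-AS1 (0.985), CSRNP1 (0.981) and DENND3 (0.978), and SLC9A3-AS1 was likewise higher in HCT116 NIR (20.6 CPM) than in MCF10A NIR (4.07 CPM). For GADD45A they were NATD1 (0.927), RIOK3 (0.916) and SH2D3A (0.910), and for DDIT4 they were LSM11 (0.875), SNRPA1 (0.863) and MRPL37 (0.853). No gene matched GADD45B closely, the highest being MTIF3 (0.718), P3H4 (0.716) and EFL1 (0.716).

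Ordered by group mean in CPM, SESN1 ran from HCT116 NIR and mixed NIR, which overlapped, through MCF10A NIR and MCF10A IR to mixed IR and HCT116 IR. SESN2 ran from the 3 NIR groups, which overlapped, to MCF10A IR, mixed IR and HCT116 IR, each above the last without overlap in CPM. TMM-scaled totals moved levels by 7.22% to 7.31% in MCF10A IR and by -2.70% to -2.48% in mixed IR. With them the MCF10A IR and mixed IR libraries were no longer apart for SESN1 and SESN2. SESN3 ran from MCF10A NIR and MCF10A IR to HCT116 IR, which overlapped mixed NIR, then to the mixed groups, which overlapped each other, and to HCT116 NIR. For DDIT4 the 3 IR groups and mixed NIR overlapped with their neighbours at the low end, and the NIR monocultures, which overlapped each other, stood apart above them. The replicates are described as biological, but nothing says that they came from separate passages. The p-values therefore judge differences against the spread between these libraries only. GENCODE release 29 places antisense genes over SESN1, SESN3 and DDIT4, and whether the counting used strand is not given in the sources used here.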

How the data were processed

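Polyadenylated RNA of 18 cultures was sequenced as paired reads of 150 bases. Per the submitters' processing notes, fastp, STAR and featureCounts were used with GRCh38; versions, annotation, strand and mate settings are not given in the sources used here. For each library the authors deposited raw, unnormalized read counts by gene symbol. Groups came from the sample titles. Low counts were mostly even (68.3% of values from 1 to 10), so fits with halved counts were among the alternatives.

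CPM is counts over the library total times 1e+06, and RPKM is CPM per kilobase of merged GENCODE release 29 exons. Gene positions and windows before starts are from RefSeq (GRCh38.p14). Comparisons were made in R 4.3.3 by edgeR's quasi-likelihood F test (version 4.0.16; 2-sided, TMM factors, filterByExpr) fitted to the groups compared, and SE was derived from the F statistic. The test was also run on simulated counts with the same dispersion for every gene, a simpler setting than these data, and no result here rests on that run. limma 3.58.1, DESeq2 1.42.0, other factors, filters and fits, and leaving out each library were alternatives. Same-numbered libraries had residual correlations of -0.043 to 0.109, so the numbers were not taken to pair libraries.

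The share of MCF10A RNA came from medians over genes whose mean reached 20 CPM in 1 line while all libraries of the other line stayed under 1 CPM. The 7 genes, the lists and the naming rule were chosen with earlier results of these data known. Named were all 7 genes, and from each list the 2 genes with the largest called fold change in each direction with at least 5 CPM in the higher group, of which some are printed. ATF4, FOXO3, DDIT4L, CDKN1A and MDM2 and the 3 most alike genes were also named. Some genes that the rule names are not reported here. Counts limit precision, and intervals for counts of 0 cover counting error only.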

Additional observations from a re-analysis of the deposited data

Results flagged for a closer look

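The irradiation responses of HCT116 and MCF10A differed for 3 of the 6 genes tested, in edgeR's test of the difference itself, which 37.3% of all genes passed. SESN1 responded more in HCT116, by 0.98 on the log2 scale (adjusted p = 3.8e-07). SESN3 differed by -2.26 (adjusted p = 2.0e-11), with a fall in all 3 irradiated HCT116 libraries and a rise in all 3 irradiated MCF10A libraries. GADD45A differed by -0.64 (adjusted p = 1.1e-06), with its rise in MCF10A. The responses of mixed cultures and HCT116 alone differed for SESN3 by 0.67 (adjusted p = 0.0106), in cultures where MCF10A supplied 0.447% ± 0.053 of RNA without irradiation and 1.24% ± 0.066 after it (SD, n = 3). That call was lost on leaving out any 1 of 4 libraries, HCT116 NIR replicate 1, HCT116 IR replicate 1, mixed NIR replicate 1 or mixed IR replicate 3 (adjusted p from 0.0524 to 0.0706 by edgeR).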

How the results depend on the processing

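Of 986 values of the 7 genes under alternative settings, 900 kept their direction and side of the threshold, 26 lost a call, 24 gained one and 36 changed sign or reached 0. All 96 values of HCT116 irradiation and 92 of 96 of MCF10A irradiation were kept, the other 4 being SESN1 in MCF10A. All of these 36 were differences that missed the threshold or DDIT4 between the irradiated lines. In the mixed irradiation comparison GADD45G was 0.43 with limma-voom. DDIT4 between the lines was 0.013 with upper-quartile factors and 0.0083 with library size alone without irradiation, and 0.0083 with library size alone after it. Its response difference between the lines was 0 with library size alone, 0.051 without the low-count filter, 0.048 in a fit of all 18 libraries and 0.051 without mitochondrial genes. Against HCT116, mixed NIR SESN2 was -0.0067 and mixed IR GADD45A -0.003 with limma-voom.

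With the replicate number as a block, mixed NIR SESN2 was -0.017 and mixed IR GADD45A -4e-04 against HCT116. The block took the genes called from 4 to 2 between the NIR lines (GADD45A and GADD45B lost), from 1 to 2 for mixed NIR against HCT116 (SESN3 gained) and from 1 to 3 for mixed IR against HCT116 (SESN2 and DDIT4 gained). It changed no other call. Without the low-count filter, 2 genes were called for mixed NIR against HCT116 (SESN3 gained) and 2 for the response difference of mixed cultures and HCT116 (DDIT4 gained).

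On leaving out 1 library at a time, the genes called ranged from 2 to 4 between the NIR lines, from 1 to 2 for mixed IR against HCT116 and from 0 to 2 for the response difference of mixed cultures and HCT116. They also ranged from 2 to 4 for mixed irradiation and from 4 to 5 for MCF10A irradiation. Between the IR lines they ranged from 4 to 5, and for the response difference of the lines from 3 to 4. Differences that changed sign ranged as follows, on the log2 scale. Mixed irradiation ranged from -0.027 to 0.19 for SESN3, -0.17 to 0.13 for GADD45B and -1.37 to 0.33 for GADD45G. The NIR lines ranged from -0.025 to 0.23 for SESN2, the IR lines from -0.085 to 0.069 for SESN1, and the response difference of the lines from -0.16 to 0.13 for DDIT4. Mixed NIR against HCT116 ranged from -0.30 to 0.20 for SESN2, -0.090 to 0.031 for GADD45B and -0.65 to 0.43 for GADD45G. Mixed IR against HCT116 ranged from -0.061 to 0.060 for GADD45A and -0.10 to 0.20 for GADD45B. The response difference of mixed cultures and HCT116 ranged from -0.47 to 0.036 for SESN2 and -0.082 to 0.22 for GADD45B.

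With line-specific genes set at 50 CPM and 0.5 CPM, the MCF10A share was 0.297% in mixed NIR and 1.04% in mixed IR. Levels moved by -5.94% to 9.41% with TMM-scaled totals and by 5.47% to 14.1% without mitochondrial genes. GADD45G held at most 16 counts in a library, so its differences were not detectable at this depth.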
